A study of Sus scrofa with 12 samples.

Results

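The genes considered here encode 8 RNA-binding proteins that control the formation of circular RNA (circRNA): QKI, MBNL1, HNRNPL, ADAR, DHX9, ILF2, ESRP1 and RBM20. They were taken from the gene table by their exact symbols, and all 8 were found among 29884 genes. The table came from a study of pig ovaries that compared sows of small litter size (SLS, 8.48 ± 0.53 piglets per litter) with sows of large litter size (LLS, 16.19 ± 0.43 piglets per litter; the study's methods give its results as mean ± SEM). The left ovary was taken 4 days after delivery number 4 from sows of one commercial farm, with no treatment or transgene in either group. Ribosome-depleted RNA of 3 SLS ovaries (ZD2, ZD3 and ZD12) and 3 LLS ovaries (ZD5, ZD7 and ZD8) was sequenced, with 1 library per ovary, and small RNA was sequenced in 3 libraries of each group. Breed and age in months are not given in the sources used here.

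A circRNA arises by back-splicing, in which the end of an exon is joined to the start of the same or an earlier exon, so that the molecule has no free ends. Base pairing between the introns on both sides, or proteins that bind there and come together, brings the splice sites close to each other. QKI, MBNL1 and HNRNPL bind flanking introns, ILF2 belongs to a complex that stabilises intronic RNA pairs, and ADAR and DHX9 act against such pairs, by editing and by unwinding. ESRP1 and RBM20 are splicing regulators of epithelia and of striated muscle.

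The library totals computed back from the FPKM lay between 32272803 and 60903268 reads, the fewest in ZD8. The levels are given as FPKM, the reads on a gene scaled to the length of its transcript and to the depth of the library, so that genes can be compared per length. Of the marker genes looked up, all 7 luteal, all 7 granulosa, both theca and all 8 oocyte markers were above 0 in some library. So were all 6 striated muscle markers, so this alone does not support the tissue label. CYP19A1, which makes oestrogen, stayed near 0 in every ovary. ZD8 stood apart from the other 5 ovaries. Its summed level of the 7 luteal markers was 124 FPKM against 9167 to 12190 FPKM in the others, while that of the 8 oocyte markers was 128 FPKM against 6.54 to 23.3 FPKM. Differences between the groups in the gene libraries are therefore also given without ZD8. In bulk tissue, fewer cells of a type and less RNA per cell cannot be told apart.

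The levels of the 8 genes spanned a wide range. HNRNPL, ILF2 and DHX9 lay between 68.9 and 108 FPKM in every ovary. MBNL1, QKI and ADAR lay between 13.6 and 41.3 FPKM. ESRP1 and RBM20 stayed under 1 FPKM in 4 and in 6 of the 6 ovaries. No gene of the 8 was called different between LLS and SLS ovaries by limma with thresholds of 0.05 on the adjusted p and of 1 on the size of the log2 fold change, where 6 of them were tested and 0% of all 12260 genes tested were called. In none of the 8 were the 3 SLS and the 3 LLS values separate, and such separation was found in 5.12% of all genes tested.

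**Figure D1:**
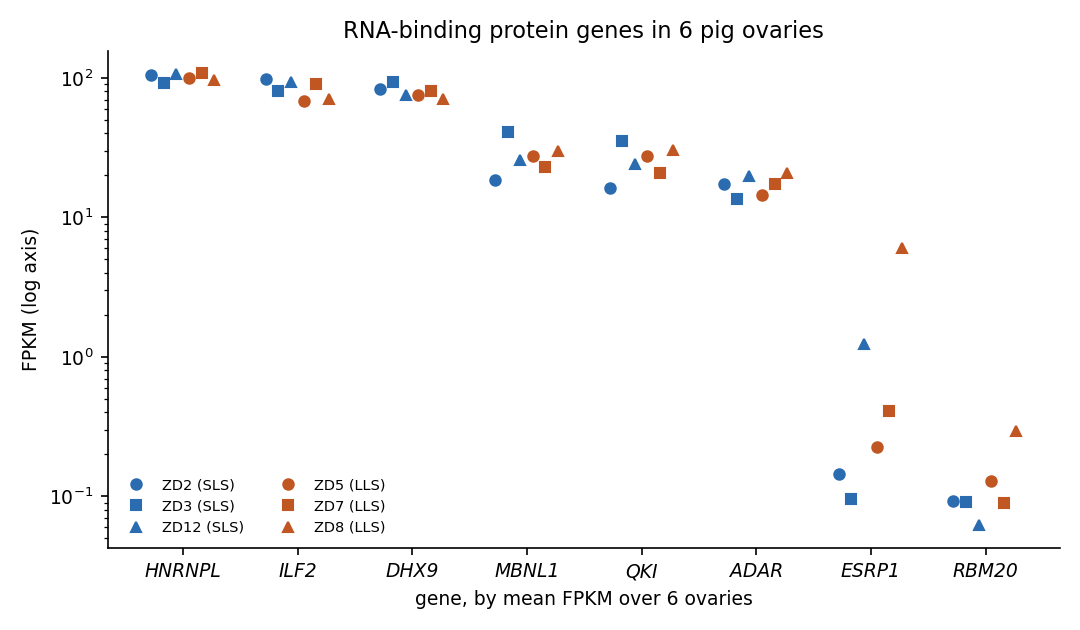
Level of each gene in FPKM (log axis) in the 3 SLS ovaries (blue) and the 3 LLS ovaries (orange), with 1 point per ovary and the genes sorted by their mean over 6 ovaries. The groups overlap for all 8 genes, and ESRP1 in ZD8 (6.03 FPKM) stands far above its level in the other ovaries.

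QKI, a KH-domain protein that binds introns beside circularised exons, lies on the minus strand at chr1:4732575-4883386 (Sscrofa11.1), and its longest annotated transcript has 7 exons and 11728 bases. In SLS ovaries QKI was at 16.4 FPKM in ZD2, 35.1 in ZD3 and 24.0 in ZD12, and in LLS ovaries at 27.8 FPKM in ZD5, 20.8 in ZD7 and 30.4 in ZD8. The lowest and the highest level were both in SLS ovaries, 2.15-fold apart, and all 3 LLS values fell between them. The means were 25.2 ± 9.44 FPKM in SLS and 26.3 ± 5.0 FPKM in LLS (SD, n = 3 each). On the log2(FPKM + 1) scale the difference, LLS minus SLS, was 0.11 (SE 0.33, limma adjusted p = 0.999), and without ZD8 it was -0.0001.

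MBNL1, a muscleblind zinc-finger protein whose own gene also gives rise to a circRNA that the protein can bind, lies on the plus strand at chr13:92491778-92696235. It was at 18.6 FPKM in ZD2, 41.3 in ZD3 and 25.8 in ZD12 (SLS), and at 27.6 FPKM in ZD5, 23.0 in ZD7 and 30.1 in ZD8 (LLS). The 6 ovaries stood in the same order as for QKI, with ZD3 highest and ZD2 lowest, 2.22-fold apart. The means were 28.6 ± 11.6 FPKM in SLS and 26.9 ± 3.59 FPKM in LLS (SD, n = 3 each), and the log2 difference was -0.02 (SE 0.33, limma adjusted p = 0.999) and -0.10 without ZD8.

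QKI and MBNL1 moved together across ovaries. The ratio of QKI to MBNL1 in FPKM was 0.879, 0.852 and 0.928 in ZD2, ZD3 and ZD12, and 1.01, 0.902 and 1.01 in ZD5, ZD7 and ZD8. Over the 6 ovaries, their log2(FPKM + 1) values had a Pearson r of 0.97 and a Spearman rho of 1 (exact permutation p = 0.00278 for both, adjusted p = 0.0778 over the 28 pairs of the 8 genes). Pearson's r was 0.99 without ZD2 and ZD3, the ovaries farthest from the median of QKI, and 0.98 without ZD8. HNRNPL ran the other way, with an r of -0.86 with QKI and -0.88 with MBNL1 (exact permutation adjusted p = 0.233 and 0.214). Without ZD8 they were -0.84 and -0.89. Without ZD2 and ZD3, the ovaries farthest from the median of QKI, r of HNRNPL with QKI was -0.96. Without ZD3 and ZD8, the ovaries farthest from the median of HNRNPL, its r with MBNL1 was -0.48. None of the 28 pairs passed an adjusted p under 0.05.

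Both genes have transcripts poor in G and C, with 35.4% GC in QKI and 38.3% in MBNL1. The libraries differed by GC content in many genes. The median of the 1372 tested genes with at most 40% GC lay 0.48 below its mean over ovaries in ZD2 on the log2 scale, and 0.435 above it in ZD3. QKI lay 0.58 below its mean in ZD2 and 0.48 above it in ZD3, and MBNL1 0.51 below and 0.60 above. When each library was centred on the median of its GC class, the range over the 6 ovaries shrank from 1.06 to 0.19 for QKI and from 1.11 to 0.27 for MBNL1 on the log2 scale. That centring was chosen after the data were seen. After it, the r of QKI with MBNL1 was 0.30, and that of HNRNPL was -0.58 with QKI and -0.0159 with MBNL1. The r of DHX9 rose from 0.36 to 0.94 with ILF2 and from -0.28 to 0.72 with HNRNPL.

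**Figure D2:**
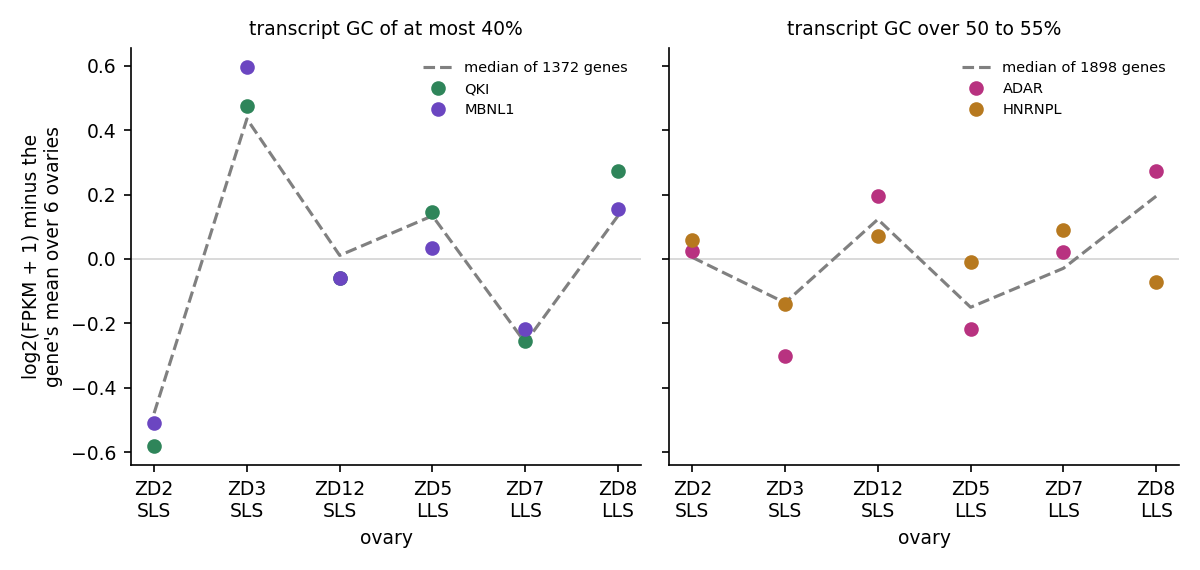
Deviation of each gene from its mean over 6 ovaries, as log2(FPKM + 1), for QKI and MBNL1 with the median of the 1372 tested genes of at most 40% GC (left), and for ADAR and HNRNPL with the median of 1898 genes of over 50 to 55% GC (right). QKI and MBNL1 lie near the line of their class in each ovary, lowest in ZD2 and highest in ZD3, and HNRNPL lies below 0 in ZD8, where the median of its class lies above 0.

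The 3′ UTR of QKI is known in human cells as a target of the miR-200 family, small RNAs that hold epithelial cells in their state. Of this family miR-200b, miR-429 and miR-141 were measured here, and they are shown 5′ to 3′ with the seed (bases 2 to 8), which pairs with the target, in capitals.
miR-200b: tAATACTGcctggtaatgatgac
miR-429: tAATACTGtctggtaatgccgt
miR-141: tAACACTGtctggtaaagatg
miR-200b and miR-429 share one seed, and miR-141 differs from them within it. On the sense strand of the annotated 3′ UTR of QKI (10623 bases, RefSeq), the match to the shared seed, CAGTATT, occurred 6 times. Of 175 other 3′ UTRs of 0.8 to 1.25 times that length, 112 (64%) held at least 1 match and 0 held as many as 6. The match to the seed of miR-141, CAGTGTT, occurred 2 times in QKI, and 42.3% of these UTRs held as many. A match of letters is a description and was not tested as a site.

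The 6 stretches around CAGTATT in QKI show how the context varied while the 7 bases in capitals stayed fixed. All lie on the minus strand of chromosome 1, at chr1:4742908-4742937, chr1:4739990-4740019, chr1:4737050-4737079, chr1:4736278-4736307, chr1:4736060-4736089 and chr1:4735992-4736021 in this order.
QKI match 1: gcaaataattatCAGTATTaaacatggcat
QKI match 2: ccactgaagatgCAGTATTtttgtagtatt
QKI match 3: ttttgattatttCAGTATTtaatgttagcc
QKI match 4: taaaaaagatacCAGTATTtgatccagttt
QKI match 5: tgccttggttctCAGTATTatcatacttta
QKI match 6: ctttttttctgaCAGTATTatgtaattttt
Among the other genes, ADAR and ESRP1 held CAGTATT once each, and 27.8% and 15.4% of 3′ UTRs near their lengths held it. The 3′ UTRs of MBNL1 and ESRP1 held CAGTGTT once each, against 38.9% and 19.9% of UTRs near their lengths.

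The levels of these miRNAs, in reads scaled to the depth of the small RNA library (RPM), were lower on average in LLS. miR-200b was at 146, 218 and 377 RPM in SLS and at 83.7, 128 and 173 RPM in LLS, and the groups overlapped (exact two-sided permutation p = 0.2). miR-429 averaged 9.09 ± 3.07 RPM in the SLS libraries against 4.93 ± 1.96 RPM in the LLS libraries, and miR-141 averaged 118.5 ± 56.9 and 72.4 ± 21.7 RPM (SD, n = 3 each, exact permutation p = 0.2 and 0.3, unadjusted). With 3 ovaries against 3 this test cannot go below 0.1. The small RNA libraries are not paired here with the gene libraries, so miRNA and QKI levels were not compared by ovary.

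HNRNPL, which binds CA-rich RNA and sets splice site choice, lies on the minus strand at chr6:47643561-47655856. It was at 106 FPKM in ZD2, 92.0 in ZD3 and 107 in ZD12 (SLS), and at 100.5 FPKM in ZD5, 108 in ZD7 and 96.4 in ZD8 (LLS). Its highest level was 1.17-fold its lowest, the narrowest range of the 8 genes. The SD of log2(FPKM + 1) over the 6 ovaries was 0.091, and 45 of the 12260 genes tested (0.37%) had a smaller SD, where the median gene had 0.40. The means were 101.4 ± 8.19 FPKM in SLS and 101.6 ± 5.83 FPKM in LLS (SD, n = 3 each), with a log2 difference of 0.005 (SE 0.28, limma adjusted p = 0.999) and 0.04 without ZD8. This steadiness holds for FPKM as deposited, since centring within GC classes widened the range of HNRNPL from 0.23 to 0.48 on the log2 scale.

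ADAR edits adenosine to inosine in double-stranded RNA and lies on the plus strand at chr4:95154230-95197308. It was at 17.3 FPKM in ZD2, 13.6 in ZD3 and 19.7 in ZD12 (SLS), and at 14.5 FPKM in ZD5, 17.3 in ZD7 and 20.8 in ZD8 (LLS). The means were 16.9 ± 3.03 FPKM in SLS and 17.5 ± 3.14 FPKM in LLS (SD, n = 3 each), and the log2 difference was 0.05 (SE 0.27, limma adjusted p = 0.999) and -0.07 without ZD8. One form of ADAR is induced by interferon, and the 8 interferon response genes listed had their highest sum in ZD12 (63.9 FPKM) and 24.9 to 38.4 FPKM in the other ovaries. ADAR was highest in ZD8, where that sum was 32.2 FPKM, and second highest in ZD12. The part of interferon in the level of ADAR was not tested. Centring within GC classes narrowed the range of ADAR from 0.57 to 0.24 on the log2 scale.

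DHX9, a helicase that unwinds paired RNA, lies on the plus strand at chr9:124141929-124183838. It was at 83.8 FPKM in ZD2, 92.8 in ZD3 and 75.2 in ZD12 (SLS), and at 76.0 FPKM in ZD5, 81.2 in ZD7 and 71.0 in ZD8 (LLS). The means were 84.0 ± 8.82 FPKM in SLS and 76.1 ± 5.07 FPKM in LLS (SD, n = 3 each). The log2 difference was -0.14 (SE 0.27, limma adjusted p = 0.999), and -0.09 without ZD8. Like HNRNPL it varied little, and 2.05% of the genes tested had a smaller SD on the log2 scale, but centring within GC classes widened its range from 0.38 to 0.83.

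ILF2, a subunit of a complex that binds double-stranded RNA, lies on the plus strand at chr4:95980862-95987568. It was at 98.9 FPKM in ZD2, 80.0 in ZD3 and 93.7 in ZD12 (SLS), and at 68.9 FPKM in ZD5, 90.6 in ZD7 and 70.1 in ZD8 (LLS). The means were 90.9 ± 9.73 FPKM in SLS and 76.5 ± 12.2 FPKM in LLS (SD, n = 3 each). The log2 difference of -0.25 (SE 0.28, limma adjusted p = 0.999) was the largest in size of the 6 genes tested, and it was -0.19 without ZD8. ZD7 lay above the SLS ovary ZD3, so the groups overlapped (exact permutation p = 0.2). Centring within GC classes widened the range of ILF2 from 0.515 to 0.929 on the log2 scale.
ILF2 and DHX9 were lower in LLS under all 16 alternatives, none of which called them.

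**Figure D3:**
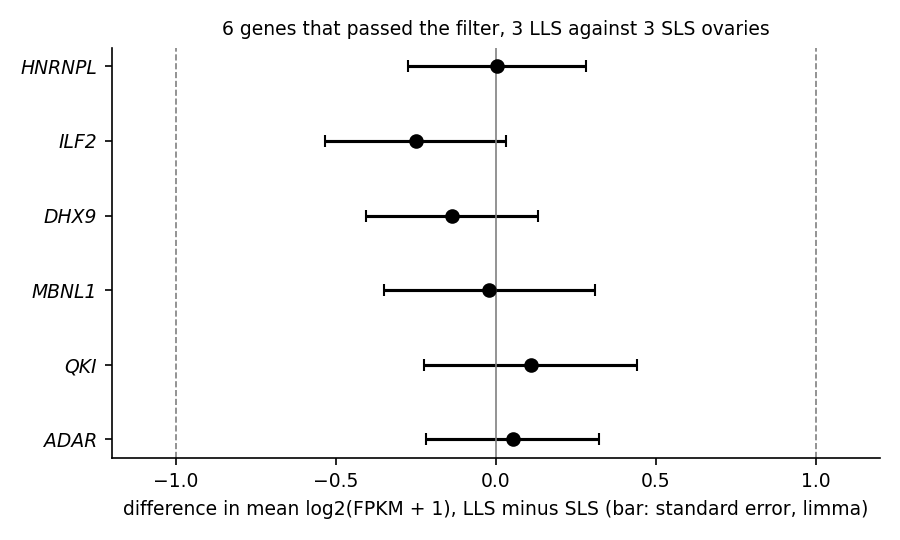
Difference in mean log2(FPKM + 1), LLS minus SLS, for the 6 genes that passed the filter (points), with the standard error from limma (bars) and the fold limit for a call at -1 and 1 (dashed lines). All 6 differences lie between -0.25 and 0.11, and each bar crosses 0.

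ESRP1, the epithelial splicing regulator, lies on the minus strand at chr4:41993944-42061706. It was at 0.145 FPKM in ZD2, 0.0953 in ZD3 and 1.23 in ZD12 (SLS), and at 0.225 FPKM in ZD5, 0.411 in ZD7 and 6.03 in ZD8 (LLS). ZD8 was thus 63.3-fold above ZD3, and ZD12 stood second. These values rest on 43, 24 and 317 reads in SLS and on 63, 122 and 948 reads in LLS, and the exact Poisson 95% interval was 0.0611 to 0.142 FPKM in ZD3 and 5.65 to 6.43 FPKM in ZD8 (counting error only). The means were 0.490 ± 0.641 FPKM in SLS and 2.22 ± 3.30 FPKM in LLS (SD, n = 3 each), both smaller than their SD. The gene did not pass the filter of at least 1 FPKM in 3 libraries and was compared by the exact permutation test (log2 difference 0.71, p = 0.5). The difference was -0.10 without ZD8, so that its direction rests on that ovary. With 0.1 in place of 1 added to the FPKM, the log2 difference over all ovaries was 1.33. In the count tests with a lower filter, chosen after the data were seen, ESRP1 was not called (log2 difference 1.88 by edgeR and 1.92 by DESeq2, adjusted p = 0.9998 and 0.9996).

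The order of the ovaries for ESRP1, from ZD8 over ZD12, ZD7, ZD5 and ZD2 down to ZD3, was also that of 2 oocyte genes, ZP3 and BMP15. ZP3, a coat protein of the egg, was at 0.976, 0.179 and 5.38 FPKM in ZD2, ZD3 and ZD12, and at 1.02, 2.07 and 40.4 FPKM in ZD5, ZD7 and ZD8. BMP15, a growth factor of the oocyte, was at 0.206, 0.133 and 2.54 FPKM in SLS and at 0.281, 0.398 and 17.0 FPKM in LLS in the same order. ESRP1 and both genes were highest in ZD8, with ZD12 second and ZD3 lowest. The full order of ESRP1 was shared by 2 of 8 oocyte markers, by 1 of 9 epithelial markers and by 0.734% of all genes tested. The epithelial one was GRHL2, a transcription factor of epithelia, at 0.0182 FPKM in ZD3 and 1.79 FPKM in ZD8. The pair of highest ovaries, ZD8 and ZD12, was shared by 7 of 8 oocyte markers, 2 of 2 theca, 3 of 7 granulosa, 3 of 9 epithelial and 0 of 7 luteal markers, and by 25.4% of all genes tested. The 8 oocyte markers summed to 6.54 to 23.3 FPKM in SLS and to 8.40 to 128 FPKM in LLS, and FIGLA, an oocyte transcription factor, was at 0 in 3 ovaries. The 9 epithelial markers summed to 8.65 to 58.0 FPKM in SLS and to 19.9 to 34.6 FPKM in LLS. EPCAM, an epithelial adhesion protein, was highest in ZD5 (27.8 FPKM) and at 2.31 FPKM in ZD8, whereas CDH1, the cadherin of epithelia, was highest in ZD8 (6.10 FPKM). The part of oocytes or of epithelium in the level of ESRP1 was not tested.

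**Figure D4:**
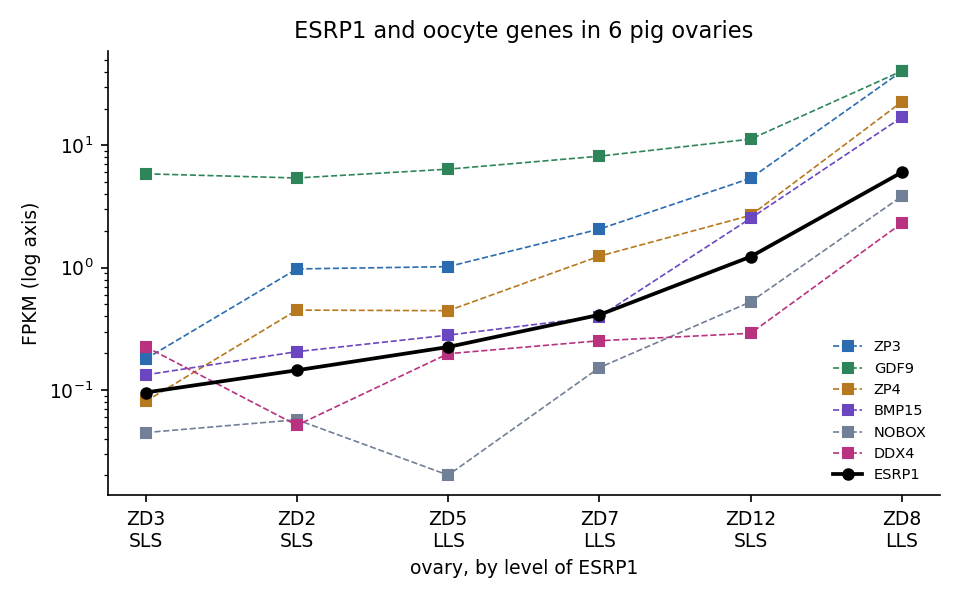
Level in FPKM (log axis) of ESRP1 and of the 6 oocyte markers that were above 0 in every ovary, with 1 point per ovary and the ovaries sorted by ESRP1. ESRP1 rises from 0.0953 FPKM in ZD3 to 6.03 FPKM in ZD8, and all 6 oocyte markers are highest in ZD8.

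ZEB proteins repress epithelial genes, ESRP1 among them, through E-boxes, and the 250 bases before the annotated start of ESRP1 (minus strand, chr4:42061707-42061956, Sscrofa11.1) are shown because they hold one, in capitals.
ESRP1 upstream: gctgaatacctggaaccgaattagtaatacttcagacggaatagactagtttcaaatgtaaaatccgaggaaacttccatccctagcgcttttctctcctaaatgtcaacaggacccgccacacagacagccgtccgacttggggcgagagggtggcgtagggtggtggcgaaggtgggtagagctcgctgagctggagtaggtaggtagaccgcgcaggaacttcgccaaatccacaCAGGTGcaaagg
The motif CAGGTG, searched on both strands, occurred in this stretch of ESRP1 and in that of none of the other 7 genes. Of all 20636 promoter stretches of that length, 4004 (19.4%) held it, and binding was not measured. ZEB1 was at 5.77 to 8.72 FPKM in the other 5 ovaries and at 18.3 FPKM in ZD8, where ESRP1 was also highest. ZEB2, the more abundant of the pair, was highest in ZD3 (67.6 FPKM), where ESRP1 was lowest, and at 31.5 FPKM in ZD8, with 30.8 to 58.1 FPKM in the other 4. SNAI1 and SNAI2, other repressors of epithelial genes, were at 3.06 and 25.4 FPKM in ZD8, the lowest and the highest value of each over the 6 ovaries. The 4 repressors thus did not share one order over the ovaries.

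RBM20, a splicing regulator of heart and skeletal muscle whose best-known target is titin, lies on the plus strand at chr14:121058896-121269824. It was at 0.0930 FPKM in ZD2, 0.0919 in ZD3 and 0.0622 in ZD12 (SLS), and at 0.129 FPKM in ZD5, 0.0900 in ZD7 and 0.294 in ZD8 (LLS), from 36 to 104 reads. ZD8 was highest, 4.74-fold above ZD12, with an exact Poisson 95% interval of 0.241 to 0.357 FPKM (counting error only). ZD7 fell within the SLS values, and the exact permutation p was 0.3 for a log2 difference of 0.11, which was 0.04 without ZD8. The 1 added to the FPKM exceeds every level of RBM20 and compresses this difference. With 0.1 added in its place the log2 difference was 0.50. Neither edgeR nor DESeq2 called RBM20 with the lower filter (log2 difference 0.83 and 0.84, adjusted p = 0.9998 and 0.9996). The 6 striated muscle markers, which include titin (TTN), summed to 1.2 to 2.9 FPKM in the other 5 ovaries and to 8.51 FPKM in ZD8. TTN was at 0.0334 to 0.0574 FPKM in the other ovaries and at 0.500 FPKM in ZD8, and MYH7, a heart myosin, stayed under 0.02 FPKM in all. The part of such cells in the level of RBM20 was not tested.

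By mean level the order was HNRNPL, ILF2, DHX9, MBNL1, QKI, ADAR, ESRP1 and RBM20. Neighbours in that order were compared within each ovary by an exact two-sided sign-flip permutation test on log2(FPKM + 1), over 7 pairs. HNRNPL exceeded ILF2 in 6 of 6 ovaries by 0.29 ± 0.17 (SD), DHX9 exceeded MBNL1 by 1.53 ± 0.36, ADAR exceeded ESRP1 by 3.32 ± 0.87 and ESRP1 exceeded RBM20 by 0.68 ± 0.95, each in 6 of 6 ovaries (exact p = 0.03125, the smallest this test can give, adjusted p = 0.0547). ILF2 exceeded DHX9 in 3 of 6 ovaries, by 0.06 ± 0.21 (exact p = 0.531), and MBNL1 exceeded QKI in 4 of 6, by 0.10 ± 0.10 (exact p = 0.125). QKI exceeded ADAR in 5 of 6, by 0.53 ± 0.50 (exact p = 0.0625). For ESRP1 and RBM20 the count of 6 rests in ZD3 on 0.0953 against 0.0919 FPKM. Their exact Poisson 95% intervals overlapped there (0.0611 to 0.142 and 0.0686 to 0.1205 FPKM), and also in ZD2. No neighbouring pair passed after adjustment over the 7 pairs. Pairs at the smallest possible p stayed at 0.0547, so not passing does not show that their levels were alike. The order was taken from these same values, so the test gives it no independent support.

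Most of the genes were the more abundant of a pair with a relative or partner. Of 8 such pairs, 7 differed in one direction in all 6 ovaries (exact two-sided sign-flip permutation test, p = 0.03125, adjusted p = 0.0357), on the log2(FPKM + 1) scale. HNRNPL exceeded HNRNPLL by 3.61 ± 0.36 (SD), DHX9 exceeded the helicase DHX36 by 2.79 ± 0.45, ADAR exceeded the editing enzyme ADARB1 by 1.81 ± 0.15 and MBNL1 exceeded MBNL2 by 0.60 ± 0.22. QKI lay below KHDRBS1, another protein of its STAR family, with a difference of -1.31 ± 0.23, and RBM20 lay below RBM24, another muscle splicing factor, with -0.97 ± 0.57. ESRP1 and ESRP2 were not separated (0.57 ± 0.90, higher in 5 of 6 ovaries, exact p = 0.156). ESRP2 stayed at 0.0896 to 0.441 FPKM, highest in ZD8 as ESRP1 was but under 1 FPKM. With 1 ovary left out, 5 remain and the test cannot go below 0.0625.

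The other genes of circRNA biology showed no called difference between LLS and SLS either. Of 15 relatives and partners, 10 were tested and 0 were called by limma, with a median log2 difference of 0.02, where the median over all 12260 genes tested was also 0.02. Of 28 other factors of circRNA formation, 27 were found in the table under their symbols (NONO was not), 26 were tested and 0 were called, with a median of 0.05. Of 21 genes of circRNA export, decay and translation, 20 were tested and 0 were called, with a median of 0.03. In all 3 lists 0 genes had an unadjusted p under 0.05, against 216 of all genes tested, for which the smallest adjusted p was 0.860. Without ZD8 the medians of the 3 lists were -0.11, -0.24 and -0.12, and that of all genes tested was -0.10. The counts of 0 in the members and these lists were also those of edgeR and DESeq2.

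Among the relatives the smallest p was that of MBNL2 (log2 difference 0.32, SE 0.31, unadjusted p = 0.340 by limma), followed by ADARB1 (0.26, SE 0.30), and without ZD8 these differences were 0.20 and 0.05. Among the other factors it was that of NOVA2, a neuronal splicing regulator (-0.39, SE 0.32, unadjusted p = 0.254 by limma), followed by SRSF5, an SR protein (0.64, SE 0.58), which was at 45.8 FPKM in ZD8 and at 6.73 to 14.2 FPKM in the others. Without ZD8 the difference was -0.21 for NOVA2 and -0.0520 for SRSF5, whose direction thus rests on ZD8. Among the third list it was that of DDX39A, a helicase of RNA export that acts on short circRNAs (-0.57, SE 0.27, unadjusted p = 0.0661 and adjusted p = 0.999 by limma), followed by RIDA, an adaptor of RNA decay (-0.40, SE 0.31), and without ZD8 they were at -0.42 and -0.22. DDX39A was at 20.3, 16.2 and 19.8 FPKM in ZD2, ZD3 and ZD12 and at 12.1, 15.4 and 9.79 FPKM in ZD5, ZD7 and ZD8. Its groups did not overlap, as was found for 1 of the 20 tested genes of its list and for 1 of the 26 other factors, HNRNPK, against 5.12% of all genes tested. HNRNPK was at 133.5, 168 and 148 FPKM in SLS and at 130.3, 125 and 127 FPKM in LLS, and it was named after its values were seen.

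ZD8 was the highest of the 6 ovaries for many of these genes. Among the genes tested it was highest for 7 of 10 relatives (70.0%), 19 of 26 other factors (73.1%), 12 of 20 genes of export, decay and translation (60%) and 1 of the 6 tested members (16.7%, ADAR), where the share over all genes tested was 44.6%. DHX9 was lowest in ZD8, and ILF2 and HNRNPL were both second lowest there.

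Last, the genes most like each of the 8 over the 6 ovaries were found by Pearson's r of log2(FPKM + 1) among the genes tested, as a description of 6 points that share their libraries. They were JMY, ATP11B and STRN for QKI (r = 0.998, 0.996 and 0.996) and HOOK3, EIF5B and BNIP2 for MBNL1 (0.995, 0.994 and 0.994). For HNRNPL they were CDC34, MAPKAPK3 and ANGPTL2 (0.993, 0.987 and 0.986), for DHX9 BST1, SMIM13 and IQGAP1 (0.997, 0.987 and 0.9755), and for ILF2 SRM, ARPC4 and SIPA1 (0.998, 0.993 and 0.992). For ADAR they were RPL29 and the unnamed loci LOC100514038 and LOC110255327. An r over 0.95 was found with 225 genes for QKI, 357 for ADAR, 131 for MBNL1, 73 for ILF2, 58 for HNRNPL and 12 for DHX9. For ESRP1 it was found with 1080 of 12260 genes, led by PPP1R3E, LOC100625971 and KDM3B. For these 3 genes r without ZD8 was 0.998, 0.997 and 0.994. ESRP1 was far higher in ZD8 than elsewhere, and ZD8 was highest for 44.6% of all genes tested. The count of 1080 was not repeated without ZD8. For RBM20 an r over 0.95 was found with 65 genes, led by DSEL, AP3M2 and IRF8. For these r without ZD8 was 0.896, 0.929 and 0.994.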

How the data were processed

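For the gene table, the authors mapped reads to Sscrofa11.1 with HISAT2, per the labels and the study's methods, and deposited FPKM values. The program that counted reads on genes is not given in the sources used here. The authors gave miRNA levels as RPM, reads scaled by library depth. Read numbers behind the FPKM were computed back with the length of a gene's longest RefSeq transcript, and 23477 of 23564 genes with any FPKM (99.6%) gave whole reads within 0.001. Of 29884 names, 29850 matched the annotation. All 12 columns of values were used. The small RNA columns carry names that the labels give to the gene libraries, so they were used by group only, and their totals were 3537619 to 9854086 reads.

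Groups were compared by limma 3.58.1 with a trended variance (R 4.3.3) on log2(FPKM + 1), for the 12260 genes with at least 1 FPKM in at least 3 libraries, with Benjamini-Hochberg adjustment over all of them. The study's methods used DESeq2 for mRNA with the same thresholds. A count test was run on recovered reads with edgeR 4.0.16 and DESeq2 1.42.0 as an alternative. Single genes were compared by exact permutation tests. All scripts of these tests were tested on simulated data. The labels name ovaries but not how sows were picked, so p-values measure the spread between these ovaries. With 3 per group, leaving out 1 ovary leaves 2 in its group.

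The 8 genes, the lists of related genes and cell type markers and the alternatives were chosen with earlier results of these data known. Named besides the 8 genes were the paired relatives, the 2 genes of the smallest p in each list, the 3 most correlated genes, and the marker, ZEB, interferon and miR-200 genes beside ESRP1, RBM20 and ADAR. GC content was taken from the longest transcript, in 6 classes, and was known for 12250 of 12260 genes tested (99.9%). Sequences, promoters and 3′ UTRs were read from RefSeq's Sscrofa11.1, the build of the files. miR-200a and miR-200c were not analysed here, nor were the circRNA junction counts. The other marker lists summed to 3373 to 9586 FPKM for stroma, 314 to 1796 for smooth muscle, 115 to 371 for endothelium, 17.4 to 38.3 for immune cells, 162 to 892 for granulosa cells, 9.31 to 415 for theca and 10.4 to 88.7 for mesothelium. One of the pairs of relatives is not reported here.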

Additional observations from a re-analysis of the deposited data

How the results depend on the processing

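No gene of the 8 and no gene of the 3 related lists was called under any alternative run, where the counts over all genes did vary. Against 0 calls, limma with array weights called 13 genes (6 higher and 7 lower in LLS), DESeq2 called 20 (11 and 9), and DESeq2 with at least 10 reads called 18 (6 and 12). Leaving out single ovaries gave 0 to 20 calls, and the 20 (14 higher and 6 lower) came without ZD8. All 13 alternatives with 0 calls, edgeR and the other ovaries left out among them, had 91 to 416 genes with p under 0.05 before adjustment. The cause was not tested.

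The directions of the small differences changed. QKI became lower in LLS by edgeR (-0.0220) and DESeq2 (-0.0237) with at least 10 reads and ranged from -0.15 to 0.37 with single ovaries left out, lowest without ZD2. ADAR was at -0.15 with array weights. It was at -0.0185 by edgeR and at -0.0206 by DESeq2 with at least 10 reads, and at -0.0839 to 0.17 with single ovaries left out. HNRNPL was at -0.0178 with median centring and at -0.0101 with centring within GC classes. It was at -0.0327 by edgeR and at -0.0389 by DESeq2 with at least 10 reads, and at -0.0632 to 0.0419 with single ovaries left out. MBNL1 was at 0.0236 with array weights and at -0.28 to 0.27 with single ovaries left out. ESRP1 ranged from -0.10 to 1.16 with single ovaries left out, where only leaving out ZD8 turned it, and reached 1.92 by DESeq2 with at least 10 reads. DHX9 and ILF2 kept their direction in 16 of 16 alternatives and RBM20 in 11 of 11.

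Of the pairs of relatives, 7 passed, and 0 passed with any 1 ovary left out, since 5 ovaries cannot give an exact p under 0.0625. No neighbouring pair passed in any alternative, and with 1 ovary left out none could. ESRP1 and RBM20 fell below the filter and could not be fitted under array weights, median centring, the edgeR and DESeq2 runs with the filter, or GC classes. The GC classes and the runs with at least 10 reads were chosen after seeing the data. Depth limits ESRP1 and RBM20 most, since ESRP1 rests on 24 to 948 reads per library and RBM20 on 36 to 104.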

Other observations

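Levels shifted between the libraries by the GC content of the transcripts, most in the classes of lowest and highest GC. Genes with over 60% GC (2485 genes) had a median deviation from their mean over ovaries of 0.19 in ZD2, -0.36 in ZD3, 0.28 in ZD12, -0.31 in ZD5, 0.02 in ZD7 and 0.18 in ZD8 on the log2 scale. Genes with at most 40% GC lay at -0.48, 0.435, 0.01, 0.13, -0.26 and 0.13 in the same ovaries. The high and the low class thus deviated in opposite directions in ZD2, ZD3, ZD5 and ZD7, with ovaries of both groups on each side. In ZD8 the median was above 0 in all 6 classes, between 0.13 and 0.24. DHX9, at 44.0% GC, and ILF2, at 47.3%, lay below 0 in ZD8 (-0.16 and -0.24), where the medians of their classes were 0.23 and 0.24.

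ADARB1 was highest in ZD8 (6.43 FPKM), as ADAR was, and the ratio of ADAR to ADARB1 in FPKM was 4.55, 4.46 and 4.57 in ZD2, ZD3 and ZD12 and 4.17, 4.03 and 3.23 in ZD5, ZD7 and ZD8. RBM24 was at 4.00 FPKM in ZD8, at 1.71 FPKM in ZD12 and at 0.421 to 0.944 FPKM in the other 4 ovaries.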
